A study of Homo sapiens with 8 samples.

Results

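The insulin-like growth factor (IGF) axis was followed through 10 genes in cells of the human breast cancer line HS578T: the receptor genes IGF1R and IGF2R, the ligand gene IGF2, the adaptor gene IRS1 and the genes of 6 IGF-binding proteins, IGFBP2 to IGFBP7. They are the rows of the gene count table that carry these names, 10 of 60708 genes. Of the 10, 9 passed the filter on low counts. IGF2 did not pass it, with at most 1 count in any library. IGFBP2 passed with 0 to 17 counts, so its values say little.

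Polyadenylated RNA was sequenced from 4 groups of 2 libraries, which the design text calls biological replicates. HSF2oe TGF-β cells were transfected with a plasmid encoding the heat shock factor HSF2 and then given the cytokine TGF-β1, whose receptors activate SMAD proteins. HSF2oe control cells received the same plasmid and assay medium without the cytokine. Mock TGF-β and Mock control cells received a plasmid encoding green fluorescent protein (GFP) in place of HSF2, followed by the same media. All groups received 25 µg of DNA, and after 24 h the medium was changed for another 24 h, with TGF-β1 at 10 ng/ml where it was used. The growth medium held 10% serum and 10 µg/ml insulin, a hormone that can also bind the IGF1 receptor at high concentration. The assay medium is described as DMEM with 2% of a supplement the label does not name, and whether it held insulin is not given in the sources used here. Transfection was of whole cultures, the share of cells that took up plasmid is not given, and 1 line was used. 1 label field conflicts with the others: it names DMSO as the treatment of all Mock samples and the cytokine as that of all HSF2oe samples. Groups were taken from the titles. Nothing says whether replicates came from separate cultures or days, so p-values measure the spread between these libraries.

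IGF1 and IGF2 act through the IGF1 receptor, a tyrosine kinase that recruits docking proteins such as IRS1 and through them the PI3K-AKT and MAPK pathways. IGF2R, the cation-independent mannose 6-phosphate receptor, has no kinase domain. It carries IGF2 and lysosomal enzymes to lysosomes and can bind latent TGF-β. IGFBP1 to IGFBP6 are secreted proteins that hold IGFs with high affinity, prolong their life outside cells and limit or direct their access to the receptor, until proteases such as PAPP-A cut the carrier. IGFBP7 binds IGFs with low affinity. In mesenchymal and breast cells IGFBP3 is a known TGF-β-responsive gene.

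Total gene counts ran from 17427645 to 34336107 per library. The limit of counting for a count of 0 was set at 3 counts, which equal 0.0851 to 0.195 CPM (counts scaled to library size). This limit covers counting error only. HSF2 was at 489 to 937 CPM in the HSF2oe libraries and 5.40 to 8.36 CPM in the Mock libraries, with plasmid and endogenous transcripts counted together. SMAD7, an inhibitor that SMADs induce, rose with TGF-β by 0.48 ± 0.14 on the log2 scale in HSF2oe and by 0.87 ± 0.14 in Mock cells (adjusted p = 0.0478 and 9.82e-04, edgeR). The mean SMAD7 level was 52.0 CPM in HSF2oe control against 31.7 CPM in Mock control. With TGF-β it was 72.3 CPM in HSF2oe against 57.9 CPM in Mock cells. The HSF2oe call of SMAD7 was lost without either HSF2oe TGF-β 1 (0.34, adjusted p = 0.284) or HSF2oe control 2 (0.26, adjusted p = 0.359), without any one Mock library, by limma (adjusted p = 0.0552), and with library totals, a stricter filter or only the 4 libraries compared (adjusted p = 0.14, 0.055 and 0.101). Markers of a mesenchymal breast cancer line were plentiful, with VIM at 3181 to 4176 CPM. Of 5 breast epithelial markers, the epithelial adhesion gene EPCAM (0 to 4 counts) and KRT19 (0 to 6 counts) were near 0, although the labels call the cells epithelial. KRT18 reached 275 CPM. Of 4 luminal hormone receptor markers PGR was at 0 in every library and ESR1 had 1 to 6 counts, while GATA3 had 7.58 to 15.2 CPM and FOXA1 1.95 to 3.20 CPM, and of 6 blood and endothelial markers CD3E and HBB were among those at 0. The summed level of those 6 markers lay at 1.37 to 4.66 CPM, most of it PECAM1 (1.37 to 4.24 CPM). PTPRC had 0 to 24 counts and CDH5 0 to 5 counts.

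Levels of different genes were set side by side as TPM, a share of the library that is corrected for gene length. IGFBP7 was the most abundant member in every library, at 1549 to 2692 TPM. IGFBP3 followed at 327 to 1643 TPM and IGFBP4 at 238 to 912 TPM. IGFBP5 had 249 to 413 TPM and IGFBP6 92.7 to 264 TPM. Of the receptor genes, IGF2R had 67.9 to 98.5 TPM and IGF1R 15.7 to 34.0 TPM, while the adaptor gene IRS1 had 23.3 to 44.5 TPM. The IGF2R level was 2.16 to 2.30 times the IGF1R level with HSF2oe TGF-β and 4.198 to 5.43 times it in HSF2oe control. The same TPM ratio was 2.85 and 3.03 with Mock TGF-β and 4.625 and 4.805 in Mock control.

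The order of the levels was not the same in each group. With HSF2oe TGF-β, IGFBP3 (962 and 1502 TPM) lay above IGFBP4 (238 and 312 TPM), which overlapped IGFBP5 (249 and 253 TPM). In HSF2oe control IGFBP3 (327 and 607 TPM) and IGFBP4 (386 and 506 TPM) overlapped. With Mock TGF-β, IGFBP3 (1155 and 1643 TPM) lay above IGFBP4 (451 and 527 TPM). In Mock control the order was turned round, with IGFBP3 at 463 and 646 TPM and IGFBP4 at 757 and 912 TPM. IRS1 lay above IGF1R in both libraries of HSF2oe TGF-β, HSF2oe control and Mock control, and below it in both Mock TGF-β libraries.

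No IGF ligand was detected at a level above the limit of counting. IGF2 had 1 count in HSF2oe TGF-β 2 and in Mock control 2, and 0 in the other libraries. IGF1 and the insulin gene INS had 0 counts in all 8. These zeros are limited by annotation as well as depth, because the counting left out read pairs that overlap several genes and 72.1% of the exonic bases of IGF2 are shared with other genes, INS-IGF2 and IGF2-AS among them. For IGF1 the shared part was 82.5%. H19, the maternally expressed neighbour of IGF2, had 0 to 3 counts. The insulin receptor gene INSR had 4 to 29 counts, at most 0.33 TPM, far below IGF1R. The insulin receptor substrate genes IRS2 and IRS4 had 0 counts in every library, which leaves IRS1 as the only one of the 3 IRS genes measured that was detected.

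**Figure D1:**
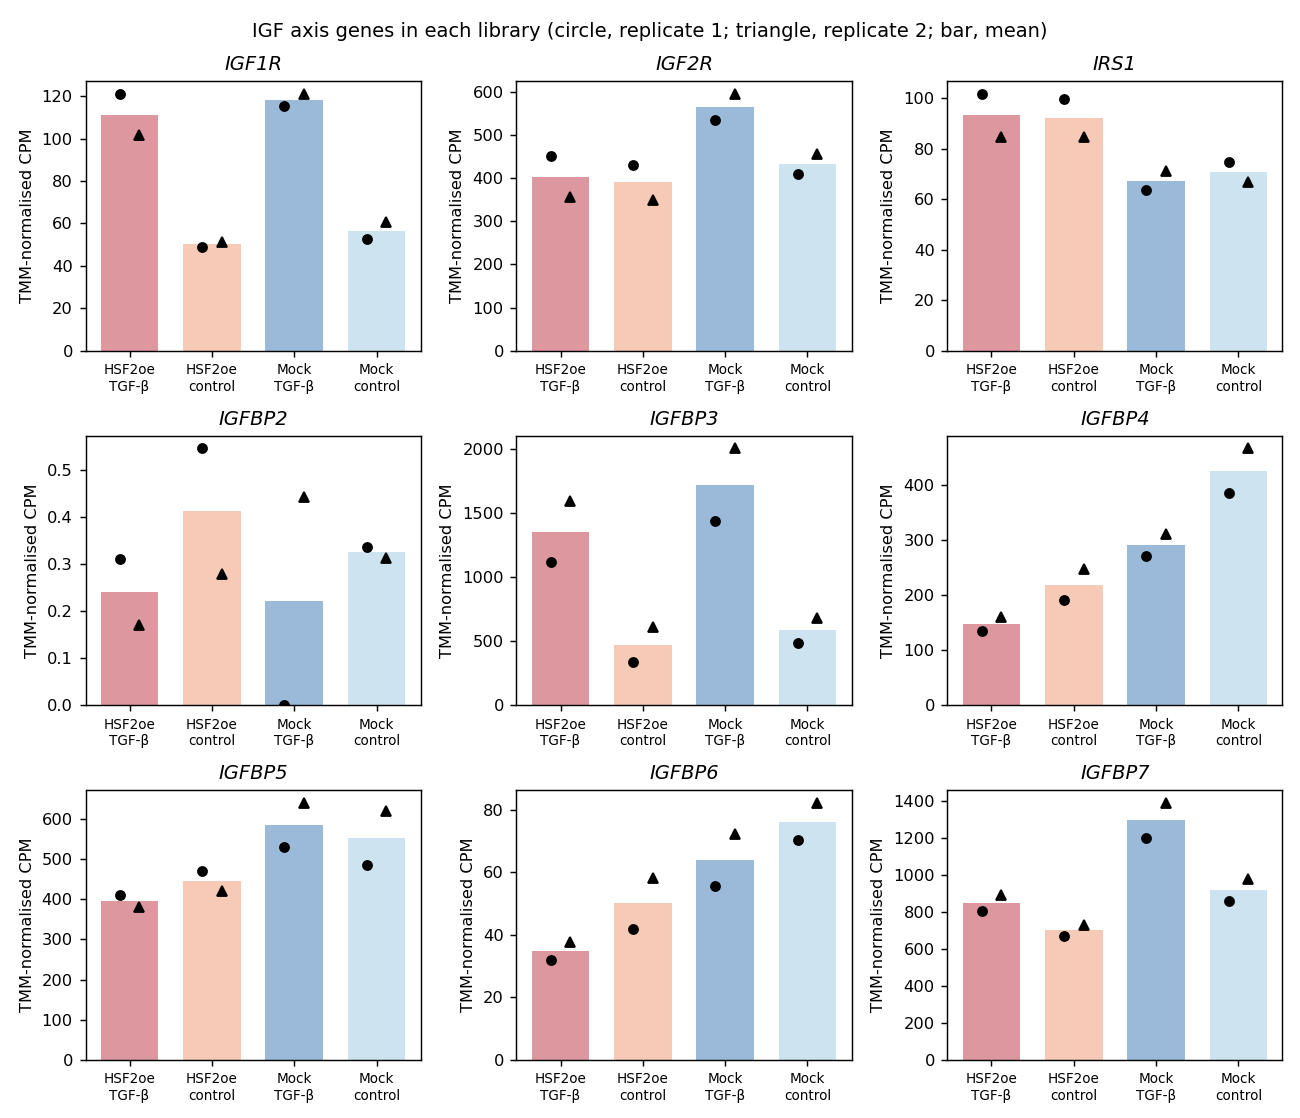
TMM-normalised CPM of the 9 tested members (vertical axes, each from 0) in the 4 groups, with a circle for replicate 1, a triangle for replicate 2 and a bar for the mean of 2 libraries. IGF1R and IGFBP3 stand higher with TGF-β than without it in both transfections, and IGFBP4 is lowest with HSF2oe TGF-β (134 and 160 CPM) and highest in Mock control (385 and 466 CPM).

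The response to TGF-β1 was asked separately in HSF2oe cells and in Mock cells, where IGFBP3 and IGF1R rose and IGFBP4 fell in both. Differences between groups are given in CPM scaled by trimmed-mean (TMM) library factors, with log2 fold changes ± standard error from a test across all 16008 genes that passed the filter. The call is an adjusted p under 0.05. In HSF2oe cells 3 of the 9 tested members passed, 2 higher and 1 lower, beside 8.26% of all genes tested (4.45% higher and 3.82% lower). In Mock cells 4 of the 9 passed, 3 higher and 1 lower, beside 13.8% of all genes (7.32% higher and 6.5% lower). The mesenchymal markers, which hold known TGF-β targets, summed to 42520 to 46210 CPM with HSF2oe TGF-β and 29910 to 31360 CPM in HSF2oe control. The sum was 53380 to 59780 CPM with Mock TGF-β and 29680 to 34560 CPM in Mock control. Most of each sum was FN1, with a mean of 38806 CPM with HSF2oe TGF-β and 26086 CPM in HSF2oe control. In Mock cells the FN1 mean was 51205 CPM with TGF-β and 27943 CPM in control. The part of these markers in the results was not tested. In a bulk library fewer cells of a kind and less RNA per cell cannot be told apart.

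IGFBP3 (ENSG00000146674.16, chromosome 7, 45912245 to 45921874, minus strand, GRCh38) encodes the main circulating IGF carrier. It had 1120 and 1594 CPM with HSF2oe TGF-β, against 335 and 613 CPM in HSF2oe control. In Mock cells it had 1436 and 2006 CPM with TGF-β, against 487 and 684 CPM in control. All 4 TGF-β libraries lay above all 4 control libraries. The log2 fold change of TGF-β over control was 1.52 ± 0.26 in HSF2oe cells and 1.56 ± 0.26 in Mock cells, or 2.86-fold and 2.94-fold (adjusted p = 0.00247 and 0.00125, quasi-likelihood F test of edgeR). Both calls held under the 15 alternatives run for each. Over those alternatives the log2 value ran from 1.15 to 2.02 in HSF2oe cells and from 1.29 to 1.82 in Mock cells.

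IGF1R (ENSG00000140443.15, chromosome 15, 98648539 to 98964530, plus strand), the signalling receptor, had 121 and 102 CPM with HSF2oe TGF-β, against 49.0 and 51.4 CPM in HSF2oe control. With Mock TGF-β it had 115 and 121 CPM, against 52.5 and 60.6 CPM in Mock control. The groups did not overlap, and the level doubled in either transfection. The log2 fold change was 1.15 ± 0.11 in HSF2oe and 1.06 ± 0.11 in Mock cells, with adjusted p of 2.85e-05 and 3.78e-05 by the same edgeR test. Both calls held under each of the 15 alternatives.

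IGFBP4 (ENSG00000141753.7, chromosome 17, 40443450 to 40457725, plus strand) encodes an IGF carrier known mainly as an inhibitor, which PAPP-A cuts in the presence of IGFs. It moved the other way. It had 134 and 160 CPM with HSF2oe TGF-β, against 191 and 247 CPM in HSF2oe control. With Mock TGF-β it had 271 and 310 CPM, against 385 and 466 CPM in Mock control. The TGF-β libraries lay below the controls of their transfection, with a log2 fold change of -0.58 ± 0.14 in HSF2oe and -0.55 ± 0.14 in Mock cells (adjusted p = 0.0223 and 0.0191, edgeR). The HSF2oe call was lost without HSF2oe TGF-β 1 (-0.46, adjusted p = 0.154) and without HSF2oe control 2 (-0.38, adjusted p = 0.219). The Mock call was lost without Mock TGF-β 1 (-0.47, adjusted p = 0.129) and without Mock control 2 (-0.41, adjusted p = 0.151).

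The promoters of these genes are shown because they are the members that responded to TGF-β in both transfections. Each is 250 bases before to 50 bases after the RefSeq start (GRCh38.p14), read 5′ to 3′ on the gene's strand. IGFBP3 is chr7:45921223-45921522 (minus strand), IGF1R is chr15:98648289-98648588 (plus strand) and IGFBP4 is chr17:40443200-40443499 (plus strand). Capitals mark every GTCT on either strand (the core of the SMAD box, AGAC on the other strand) and every GGCGCC (a GC-rich SMAD motif, the same on both strands).
IGFBP3: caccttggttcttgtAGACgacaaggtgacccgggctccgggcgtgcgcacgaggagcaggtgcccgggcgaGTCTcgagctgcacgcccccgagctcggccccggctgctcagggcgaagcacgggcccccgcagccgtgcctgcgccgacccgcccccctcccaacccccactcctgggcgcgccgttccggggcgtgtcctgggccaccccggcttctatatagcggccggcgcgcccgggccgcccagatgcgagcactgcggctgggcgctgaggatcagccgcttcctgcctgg
IGF1R: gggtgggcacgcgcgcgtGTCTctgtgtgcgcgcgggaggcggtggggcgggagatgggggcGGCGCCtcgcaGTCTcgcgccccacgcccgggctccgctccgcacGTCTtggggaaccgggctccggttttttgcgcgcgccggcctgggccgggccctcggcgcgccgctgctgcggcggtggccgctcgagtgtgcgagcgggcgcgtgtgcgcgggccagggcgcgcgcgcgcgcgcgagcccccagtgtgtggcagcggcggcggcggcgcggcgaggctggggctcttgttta
IGFBP4: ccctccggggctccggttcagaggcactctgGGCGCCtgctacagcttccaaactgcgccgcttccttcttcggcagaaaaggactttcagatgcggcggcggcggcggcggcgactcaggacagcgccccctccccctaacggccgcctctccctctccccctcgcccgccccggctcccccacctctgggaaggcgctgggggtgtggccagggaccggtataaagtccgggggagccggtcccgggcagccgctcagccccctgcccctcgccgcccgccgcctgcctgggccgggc
The IGFBP3 window held 2 GTCT and no GGCGCC, the IGF1R window 3 GTCT and 1 GGCGCC, and the IGFBP4 window 1 GGCGCC and no GTCT. Of all RefSeq promoter windows of this length, 84.0% hold GTCT and 19.2% hold GGCGCC, so such matches are common. The palindrome GTCTAGAC, which contains GTCT, is in 0.2% of windows and in none of the windows of the 8 members that matched the RefSeq table. Of the heat shock element pairs, GAANNTTC (6.8% of windows) occurred once, in IGFBP5, and TTCNNGAA (7.7% of windows) in none of the 8. The IGFBP3 window starts from a RefSeq start inside the gene as the count table draws it, whose 5′ end is at 45921874.

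IGFBP7 (ENSG00000163453.11, chromosome 4, 57030773 to 57110385, minus strand), the low-affinity member, rose in Mock cells. It had 1199 and 1388 CPM with Mock TGF-β, against 856 and 974 CPM in Mock control, a log2 fold change of 0.50 ± 0.12 (adjusted p = 0.0103, edgeR). This call was lost without Mock TGF-β 2 (0.39, adjusted p = 0.141), without Mock control 1 (0.40, adjusted p = 0.13) and with libraries scaled by their totals alone (0.24, adjusted p = 0.133). That scaling moved the median of all genes to -0.27 in this comparison. In HSF2oe cells IGFBP7 had 803 and 891 CPM with TGF-β, against 670 and 727 CPM in control. These pairs do not overlap either, with 0.28 ± 0.12 on the log2 scale and an adjusted p of 0.19 (edgeR). With a block for the replicate number this IGFBP7 difference passed (adjusted p = 0.0197, edgeR). Of the exonic bases of IGFBP7, 18.3% are shared with POLR2B and the antisense gene IGFBP7-AS1, and the counting did not use strand.

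The other members did not pass in either TGF-β comparison (edgeR, threshold as above). IGF2R (ENSG00000197081.16, chromosome 6, 159969082 to 160113507, plus strand) had 450 and 356 CPM with HSF2oe TGF-β, against 431 and 350 CPM in HSF2oe control. With Mock TGF-β it had 534 and 595 CPM, against 409 and 455 CPM in Mock control, a log2 difference of 0.39 ± 0.13 with a 95% interval of 0.10 to 0.67 and an adjusted p of 0.0761. DESeq2 put that Mock value past the threshold (adjusted p = 0.0352). So did edgeR without the low-count filter, with the replicate block and with only the 4 libraries compared (adjusted p = 0.00831, 0.013 and 0.028). Leaving out either HSF2oe TGF-β library did so as well (0.39). IGFBP6 (ENSG00000167779.9, chromosome 12, 53097436 to 53102345, plus strand), which prefers IGF2, had 31.8 and 37.8 CPM with HSF2oe TGF-β, against 42.0 and 58.1 CPM in HSF2oe control. Its log2 difference was -0.53 ± 0.16 (adjusted p = 0.0673 in edgeR and 0.0314 in DESeq2). Library totals alone, no low-count filter and the replicate block also put it past the threshold (adjusted p = 0.00924, 4.14e-04 and 3.00e-04, edgeR). Leaving out HSF2oe control 1 did so as well (-0.74). In Mock cells the IGFBP6 difference was -0.25 ± 0.16 (adjusted p = 0.364, edgeR). It passed there under library totals alone and with the replicate block (adjusted p = 0.0216 and 0.0341, edgeR). IGFBP5 (ENSG00000115461.5), a carrier that also binds matrix, differed by -0.17 in HSF2oe cells (95% interval -0.46 to 0.11) and by 0.09 in Mock cells (-0.20 to 0.37). IRS1 (ENSG00000169047.6) differed by 0.02 in HSF2oe cells (-0.24 to 0.28) and by -0.07 in Mock cells (-0.33 to 0.19). IGFBP2 (ENSG00000115457.10, chromosome 2, 216632828 to 216664436, plus strand) had too few counts, with intervals from -2.50 to 1.05 in HSF2oe and -2.39 to 1.57 in Mock cells.

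**Figure D2:**
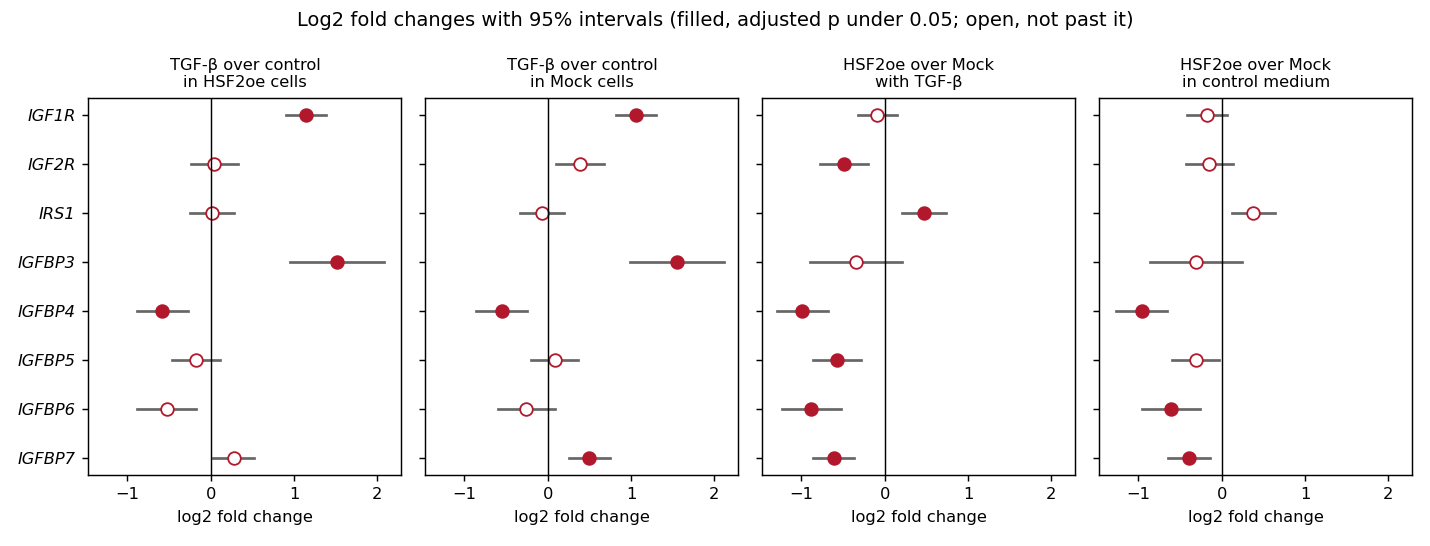
Log2 fold changes (horizontal axes) of 8 members in 4 comparisons, with lines for 95% intervals and filled points for an adjusted p under 0.05. IGFBP2 is left out for its low counts. IGF1R and IGFBP3 lie right of 0 in both TGF-β panels, and IGFBP4 lies left of 0 in all 4 panels.

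The effect of exogenous HSF2 was asked with TGF-β and without it. IGFBP4, IGFBP6 and IGFBP7 were lower in HSF2oe than in Mock cells in both media. Among cells given TGF-β, IGFBP5 and IGF2R were lower in HSF2oe than in Mock cells, and IRS1 was higher. With TGF-β, 6 of the 9 tested members passed, 1 higher and 5 lower, beside 21.5% of all genes (9.6% higher and 11.9% lower). In control medium 3 of the 9 passed, all lower, beside 12.1% of all genes (4.88% higher and 7.22% lower). The 2 comparisons share no library, but each shares libraries with the TGF-β comparisons above. The 5 breast epithelial markers summed to 195 to 234 CPM in HSF2oe libraries and 264 to 296 CPM in Mock libraries, most of it KRT18, and the 4 luminal markers to 15.3 to 18.4 CPM and 9.63 to 10.9 CPM. Their part in the results was not tested.

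IGFBP4 showed the largest difference of the tested members in both. HSF2oe over Mock gave a log2 fold change of -0.99 ± 0.14 with TGF-β and -0.96 ± 0.14 in control medium, or about 0.505 and 0.514 of the Mock level (adjusted p = 5.38e-04 and 0.00141, edgeR). From the values given above, every HSF2oe library lay below every Mock library. Both calls held under the 15 alternatives. IGFBP4 was lower with each factor, so its mean was 147 ± 18.1 CPM with HSF2oe TGF-β and 425 ± 57.9 CPM in Mock control (SD, n = 2 each).

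IGFBP6 had 31.8 and 37.8 CPM with HSF2oe TGF-β, against 55.5 and 72.2 CPM with Mock TGF-β. In control medium it had 42.0 and 58.1 CPM in HSF2oe cells, against 70.2 and 82.3 CPM in Mock cells. The groups did not overlap in either medium. From Mock to HSF2oe cells IGFBP6 fell by 0.88 ± 0.16 with TGF-β (adjusted p = 0.00241, edgeR), which held under the 15 alternatives. It fell by 0.61 ± 0.16 in control medium (adjusted p = 0.0261, edgeR), a call lost without HSF2oe control 1 (-0.39, adjusted p = 0.262) and without Mock control 2 (-0.48, adjusted p = 0.198).

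IGFBP7 was lower as well, with values that did not overlap. From Mock to HSF2oe cells it fell by 0.61 ± 0.12 with TGF-β (adjusted p = 0.00259, edgeR), which held under the 15 alternatives. In control medium it fell by 0.39 ± 0.12 (adjusted p = 0.0439, edgeR). That call was lost without any one of the 4 libraries compared, at -0.29 to -0.48 with adjusted p of 0.0551 to 0.3. It was also lost under library totals alone (-0.30, adjusted p = 0.0975) and by limma on the deposited log2 CPM (-0.38, adjusted p = 0.0527).

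IGFBP5 (chromosome 2, 216672105 to 216695549, minus strand) had 410 and 380 CPM with HSF2oe TGF-β, against 531 and 641 CPM with Mock TGF-β. It fell by 0.57 ± 0.13 there (adjusted p = 0.0086, edgeR), a call lost without Mock TGF-β 2 (-0.42, adjusted p = 0.117). In control medium it had 471 and 420 CPM in HSF2oe cells, against 485 and 620 CPM in Mock cells. That log2 difference of -0.31 ± 0.13 did not pass (adjusted p = 0.147, edgeR). Without the low-count filter or with the replicate block it passed (adjusted p = 0.0404 and 0.0465, edgeR).

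Of the receptor genes, IGF2R was lower in HSF2oe than in Mock cells when both had TGF-β. Its values there were 450 and 356 CPM in HSF2oe cells and 534 and 595 CPM in Mock cells, a log2 fold change of -0.48 ± 0.13 (adjusted p = 0.0207, edgeR). The IGF2R call was lost without HSF2oe TGF-β 2 (-0.33, adjusted p = 0.15), without Mock TGF-β 2 (-0.40, adjusted p = 0.16) and under library totals alone (-0.29, adjusted p = 0.0933). In control medium the IGF2R difference was -0.15 (95% interval -0.43 to 0.14). IGF1R differed by -0.09 with TGF-β (-0.32 to 0.15) and by -0.17 in control medium (-0.41 to 0.07) and passed in neither.

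IRS1 (chromosome 2, 226731312 to 226799820, minus strand) had 102 and 84.7 CPM with HSF2oe TGF-β, against 63.7 and 71.1 CPM with Mock TGF-β. It rose by 0.47 ± 0.12 on the log2 scale (adjusted p = 0.0158, edgeR), a call lost without HSF2oe TGF-β 1 (0.33, adjusted p = 0.16) and without Mock TGF-β 1 (0.41, adjusted p = 0.0856). In control medium it had 100.0 and 84.7 CPM in HSF2oe cells, against 75.0 and 66.7 CPM in Mock cells. That log2 difference of 0.38 ± 0.12 lay just outside the threshold in edgeR (adjusted p = 0.0557) and inside it in DESeq2 (adjusted p = 0.0413). Library totals alone and no low-count filter also put it inside (adjusted p = 0.0182 and 0.0139, edgeR). So did the replicate block and the 4 libraries compared alone (adjusted p = 0.00549 and 0.0304, edgeR). IGFBP3 differed by -0.34 ± 0.26 with TGF-β and by -0.31 ± 0.26 in control medium and passed in neither (adjusted p = 0.375 and 0.48, edgeR). Without the low-count filter IGFBP3 passed in both (-0.32 with adjusted p = 0.0144, and -0.31 with adjusted p = 0.0314).

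Whether the TGF-β response itself differed between HSF2oe and Mock cells was tested by the interaction of both factors. None of the 9 members passed, and none had an unadjusted p under 0.05, beside 0% of all genes after adjustment in edgeR. Over all 16008 genes, 977 had an unadjusted p under 0.05 in edgeR, and DESeq2 called 23 genes, none of them a member. The difference of the log2 responses (HSF2oe minus Mock) was -0.04 for IGFBP3, with a 95% interval of -0.82 to 0.74, and 0.09 for IGF1R (-0.25 to 0.42). It was -0.03 for IGFBP4 (-0.46 to 0.40), -0.34 for IGF2R (-0.74 to 0.07), -0.22 for IGFBP7 (-0.57 to 0.13) and -0.26 for IGFBP5 (-0.66 to 0.14). These intervals leave room for sizeable differences, above all for IGFBP3.

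The make-up of the binding proteins was described as each gene's share of the summed TPM of IGFBP1 to IGFBP7, with no test. IGFBP3 made up 30.2% and 35.9% with HSF2oe TGF-β, against 11.8% and 18.3% in HSF2oe control. In Mock cells its share was 26.6% and 30.2% with TGF-β, against 12.5% and 14.6% in control. IGFBP4 held 7.496% and 7.455% with HSF2oe TGF-β, against 13.99% and 15.24% in HSF2oe control. With Mock TGF-β it held 10.4% and 9.68%, against 20.4% and 20.6% in Mock control. IGFBP6 held 2.92% and 2.90% with HSF2oe TGF-β, against 5.05% and 5.88% in HSF2oe control, and 3.48% and 3.69% with Mock TGF-β, against 6.10% and 5.96% in Mock control. The IGFBP5 share was also lower with TGF-β in both transfections, within 6.06% to 11.8% over all libraries. The shares of a library sum to the whole, so a larger IGFBP3 share lowers the others without a fall in their levels. The IGFBP5 level differed with TGF-β by -0.17 in HSF2oe and 0.09 in Mock cells on the log2 scale. Neither IGFBP5 nor IGFBP6 passed for TGF-β in the main edgeR fit. IGFBP7 held 47.6% to 56.2% over the 8 libraries. The IGFBP genes together took 0.244% and 0.309% of all counts with HSF2oe TGF-β, against 0.191% and 0.230% in HSF2oe control. Their share was 0.308% and 0.379% with Mock TGF-β, against 0.242% and 0.291% in Mock control.

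**Figure D3:**
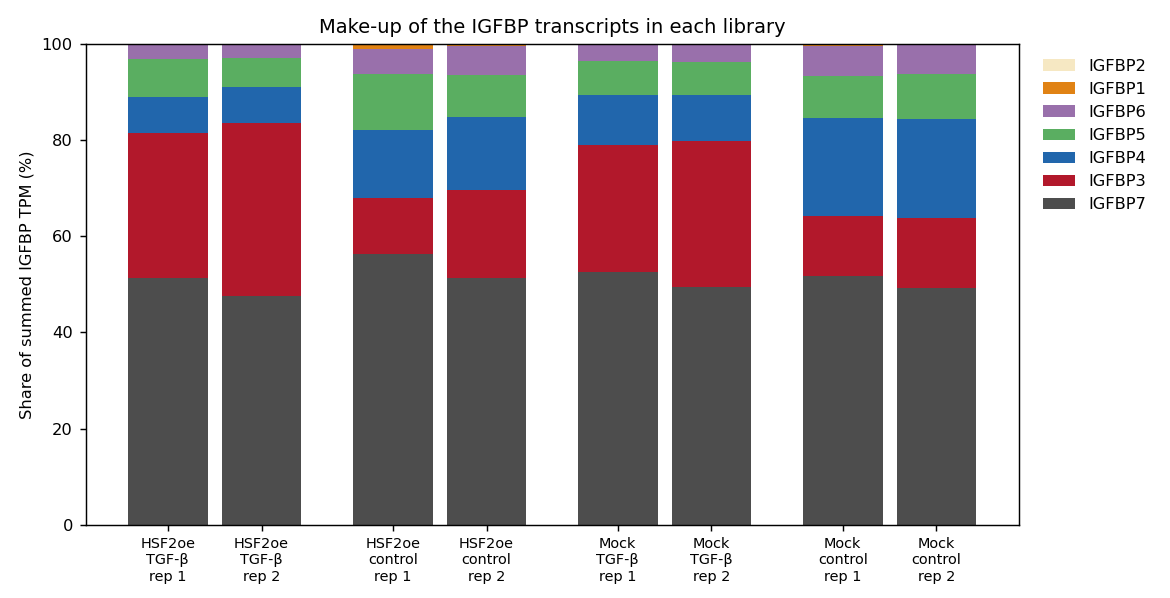
Share of the summed IGFBP TPM (vertical axis, %) taken by each IGFBP gene in the 8 libraries (horizontal axis). IGFBP3 is the segment that widens with TGF-β, at 26.6% to 35.9% of the sum against 11.8% to 18.3% in control medium, while the segments of IGFBP4, IGFBP5 and IGFBP6 are narrower with TGF-β in both transfections. The segments of a library sum to the whole, so a narrower segment need not be a lower level.

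4 of the IGFBP genes lie in pairs, tail to tail on opposite strands, and neighbours in a pair differed in level or direction. IGFBP3 and IGFBP1 lie on chromosome 7 with their ends 18.6 kb apart and no annotated gene between them. IGFBP1, a carrier known to be repressed by insulin in liver, had 2.74 and 0.981 CPM with HSF2oe TGF-β, against 10.98 and 6.05 CPM in HSF2oe control. With Mock TGF-β it had 2.34 and 2.02 CPM, against 6.37 and 4.43 CPM in Mock control. IGFBP1 fell by 2.14 ± 0.37 in HSF2oe cells (adjusted p = 0.00282, edgeR) and by 1.31 ± 0.40 in Mock cells (adjusted p = 0.047, edgeR), while IGFBP3 rose in both. The Mock call of IGFBP1 was lost without Mock TGF-β 1 (-1.42, adjusted p = 0.119), without Mock TGF-β 2 (-1.20, adjusted p = 0.24) and without Mock control 1 (-1.04, adjusted p = 0.242). It was also lost with a stricter low-count filter (adjusted p = 0.0546) and by limma on the deposited log2 CPM (adjusted p = 0.056). IGFBP5 and IGFBP2 lie on chromosome 2 with 7.7 kb between them and no annotated gene in the gap. IGFBP5 was at 380 to 641 CPM and IGFBP2 at 0 to 0.546 CPM in the same libraries.

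The rest of the pathway was described through 7 lists of genes. Medians over all genes tested were -0.01 to 0.00 on the log2 scale in these comparisons. The counts of each list stand beside the shares of all genes past the threshold. These were 8.26% for TGF-β in HSF2oe and 13.8% in Mock cells. For HSF2oe over Mock they were 21.5% with TGF-β and 12.1% in control medium. No list was tested against these shares. Of the IGFBP proteases and stanniocalcins, 8 of 9 genes were tested. With TGF-β, 2 rose and 0 fell in HSF2oe cells (median log2 change 0.04), and 4 rose and 0 fell in Mock cells (median 0.32). The HSF2oe calls were PAPPA (0.48) and ADAM12 (0.47). Both were lost without HSF2oe TGF-β 2 (PAPPA 0.43 with adjusted p = 0.116, ADAM12 0.49 with adjusted p = 0.0652), without HSF2oe control 2 (0.39 with adjusted p = 0.154, 0.45 with adjusted p = 0.114) and under library totals alone (adjusted p = 0.0873 and 0.0757). ADAM12 was also lost without HSF2oe TGF-β 1 (adjusted p = 0.0789) and without HSF2oe control 1 (adjusted p = 0.0856). Of the 4 Mock calls, HTRA1 (0.52) was lost without Mock TGF-β 2 (0.42, adjusted p = 0.11), without Mock control 1 (0.37, adjusted p = 0.13) and under library totals alone (0.26, adjusted p = 0.101). Of HSF2oe over Mock, 1 rose and 6 fell with TGF-β (median -0.55), and 1 rose and 3 fell in control medium (median -0.34). PAPPA lost its call with TGF-β without HSF2oe TGF-β 1 (-0.43), without Mock TGF-β 2 (-0.47) and under library totals alone (-0.29). HTRA1 lost its call in control medium without HSF2oe control 1 (-0.34), HSF2oe control 2 (-0.50) or Mock control 2 (-0.26). Library totals alone also lost that HTRA1 call (-0.33, adjusted p = 0.0675, edgeR). PAPPA encodes PAPP-A, the protease of IGFBP4, and rose by 0.84 ± 0.11 with TGF-β in Mock cells (adjusted p = 2.14e-04, edgeR). Of its exonic bases 21.1% are shared with PAPPA-AS1. PAPPA2, whose product cuts IGFBP3 and IGFBP5, rose by 1.09 ± 0.19 in the same comparison and was lower by -1.25 ± 0.19 in HSF2oe than in Mock cells with TGF-β (adjusted p = 0.0017 and 8.16e-04, edgeR). ADAM12, another protease of IGFBP3 and IGFBP5, rose by 0.69 ± 0.11 with TGF-β in Mock cells and differed by -0.91 ± 0.11 between HSF2oe and Mock cells with TGF-β (adjusted p = 9.10e-04 and 1.91e-04, edgeR). HTRA1, a serine protease that can cut IGFBP5, was lower by -0.88 ± 0.12 in HSF2oe cells with TGF-β (adjusted p = 3.42e-04, edgeR).

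The proteins with an IGFBP-like domain, the CCN family among them, share only that domain with the carriers. Of 8 tested genes out of 9, 4 rose and 1 fell with TGF-β in HSF2oe cells (median 0.62), and 5 rose and 1 fell in Mock cells (median 0.61). Of HSF2oe over Mock, 1 rose and 2 fell with TGF-β (median -0.09), and 1 rose and 4 fell in control medium (median -0.47). CCN2, connective tissue growth factor, rose by 2.55 ± 0.15 in HSF2oe and 2.05 ± 0.15 in Mock cells with TGF-β (adjusted p = 7.64e-07 and 2.22e-06, edgeR). CCN3 fell by 1.27 ± 0.11 and 1.96 ± 0.11 (adjusted p = 1.02e-05 and 3.28e-07, edgeR). ESM1, a secreted proteoglycan gene, was higher by 3.69 ± 0.46 with TGF-β and 5.23 ± 0.62 in control medium in HSF2oe than in Mock cells (adjusted p = 2.25e-04 and 4.63e-04, edgeR). It had only 5 and 6 counts in Mock control. ESM1 was among those that rose with TGF-β in both transfections. Its Mock call was lost without any one Mock library (2.43 to 3.42). Its HSF2oe call was lost in DESeq2 (adjusted p = 0.243) and with only the 4 libraries compared (adjusted p = 0.061, edgeR). The same call was lost without HSF2oe TGF-β 1 (1.04) or HSF2oe control 2 (0.85). CCN3 lost its call in control medium without HSF2oe control 1 (-0.44), Mock control 1 (-0.47) or Mock control 2 (-0.48). KAZALD1 was lower by -1.06 ± 0.16 in HSF2oe control than in Mock control (adjusted p = 0.00137, edgeR).

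Of the receptor adaptors and docking proteins, 13 of 15 were tested and none rose or fell with TGF-β in either transfection (edgeR, adjusted). The median log2 changes were 0.05 in HSF2oe and 0.00 in Mock cells. In each HSF2oe over Mock comparison 1 adaptor gene rose and 0 fell (medians 0.04 with TGF-β and -0.04 in control medium). It was SH2B3, an inhibitory adaptor also called LNK, which was higher by 0.88 ± 0.16 in control medium (adjusted p = 0.0048, edgeR). That call was lost without HSF2oe control 1 (0.67) and without Mock control 2 (0.73). With TGF-β SH2B3 was higher by 0.61 ± 0.16 (adjusted p = 0.0182, edgeR). This call was lost without HSF2oe TGF-β 1 (0.43) and without Mock TGF-β 2 (0.45).

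All 28 PI3K, AKT, mTOR and FOXO genes were tested. PIK3R2 had only 1 to 22 counts, with 76.4% of its exonic bases shared with AC007192.4, so its values say little. With TGF-β, 1 rose and 2 fell in HSF2oe cells (median -0.02), and 4 rose and 3 fell in Mock cells (median 0.04). Of HSF2oe over Mock, 2 rose and 5 fell with TGF-β (median -0.05), and 0 rose and 1 fell in control medium (median -0.02). PIK3CD, a catalytic PI3K subunit, rose by 0.97 ± 0.10 in HSF2oe and 0.86 ± 0.10 in Mock cells with TGF-β (adjusted p = 3.18e-05 and 7.13e-05, edgeR). PIK3R1, the regulatory subunit that docks on IRS1, fell by 0.67 ± 0.14 and 0.71 ± 0.14 (adjusted p = 0.00757 and 0.00355, edgeR). The HSF2oe call of PIK3R1 was lost without HSF2oe control 2 (-0.62, adjusted p = 0.059). FOXO1, a transcription factor that AKT keeps out of the nucleus, rose by 1.40 ± 0.22 with TGF-β in Mock cells; it had 67 to 122 counts per library (adjusted p = 8.99e-04, edgeR). The phosphatase gene PHLPP1 fell by 0.81 ± 0.14 there (adjusted p = 0.00134, edgeR). PIK3CD and PHLPP1 were the 2 that rose in HSF2oe over Mock with TGF-β. The PIK3CD call was lost without HSF2oe TGF-β 2 (0.315) and without Mock TGF-β 2 (0.408). The PHLPP1 call was lost without HSF2oe TGF-β 1 (0.415) and without Mock TGF-β 2 (0.487). FOXO1, among the 5 that fell there, lost its call without HSF2oe TGF-β 1 (-0.914) and without Mock TGF-β 1 (-0.718).

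Of the 10 negative regulators of insulin and IGF signalling, 2 rose and 0 fell with TGF-β in HSF2oe cells (median 0.04), and 1 rose and 0 fell in Mock cells (median -0.04). The HSF2oe calls were TRIB3 (0.58) and SOCS3 (0.52), both lost without HSF2oe control 1 (TRIB3 0.44 with adjusted p = 0.128, SOCS3 0.61 with adjusted p = 0.101). TRIB3 was also lost without HSF2oe TGF-β 2 (0.42). SOCS3 was also lost without HSF2oe TGF-β 1 (0.29), HSF2oe control 2 (0.43) or Mock control 1 (0.52). Library totals alone (0.35, adjusted p = 0.128, edgeR) and limma (0.49, adjusted p = 0.0727) lost the SOCS3 call too. So did a stricter low-count filter and only the 4 libraries compared (adjusted p = 0.0512 and 0.0565, edgeR). Of HSF2oe over Mock, 2 rose and 2 fell with TGF-β (median 0.28), and 2 rose and 2 fell in control medium (median 0.10). Those that rose in control medium were SOCS3 (0.56) and NEDD4 (0.44). Both were lost without HSF2oe control 1 (SOCS3 0.47, NEDD4 0.27), without Mock control 1 (0.65, 0.56) and without Mock control 2 (0.47, 0.34). NEDD4 was also lost without either Mock TGF-β library (0.439) and by limma on the deposited log2 CPM (0.445, adjusted p = 0.0575). DDIT4, an inhibitor of mTORC1, was lower by -1.91 ± 0.26 with TGF-β and -1.84 ± 0.26 in control medium (adjusted p = 3.32e-04 and 0.00104, edgeR). TRIB3, a pseudokinase that can bind AKT, was lower by -1.07 ± 0.13 and -1.03 ± 0.13 (adjusted p = 1.54e-04 and 5.25e-04, edgeR). SOCS3 was higher by 0.65 ± 0.15 and the ubiquitin ligase gene NEDD4 by 0.55 ± 0.14 in HSF2oe than in Mock cells with TGF-β (adjusted p = 0.0082 and 0.0133, edgeR). Both calls were lost without HSF2oe TGF-β 1 (SOCS3 0.42 with adjusted p = 0.107, NEDD4 0.38 with adjusted p = 0.142) and without Mock TGF-β 2 (SOCS3 0.49 with adjusted p = 0.0978, NEDD4 0.52 with adjusted p = 0.0919).

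The ligands, receptors and carriers other than the members had 4 of 8 genes tested. IGFBP1 was the only one that passed, lower with TGF-β in both transfections, and none passed in either HSF2oe over Mock comparison. Their median log2 changes were 0.13 with TGF-β in HSF2oe and -0.12 in Mock cells, and -0.23 with TGF-β and -0.40 in control medium for HSF2oe over Mock. Of the IGF2 RNA-binding and locus partners 3 of 4 were tested, with medians of -0.03 and 0.31 for TGF-β in HSF2oe and Mock cells and 0.13 and 0.73 for HSF2oe over Mock with TGF-β and in control medium. IGF2BP3 was the only one past the threshold, higher by 0.73 ± 0.21 in HSF2oe control than in Mock control (adjusted p = 0.0398, edgeR). That call was lost without HSF2oe control 1 (0.35, adjusted p = 0.432), without Mock control 1 (0.85, adjusted p = 0.073), without Mock control 2 (0.62, adjusted p = 0.245) and by limma on the deposited log2 CPM (0.70, adjusted p = 0.0617).

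**Figure D4:**
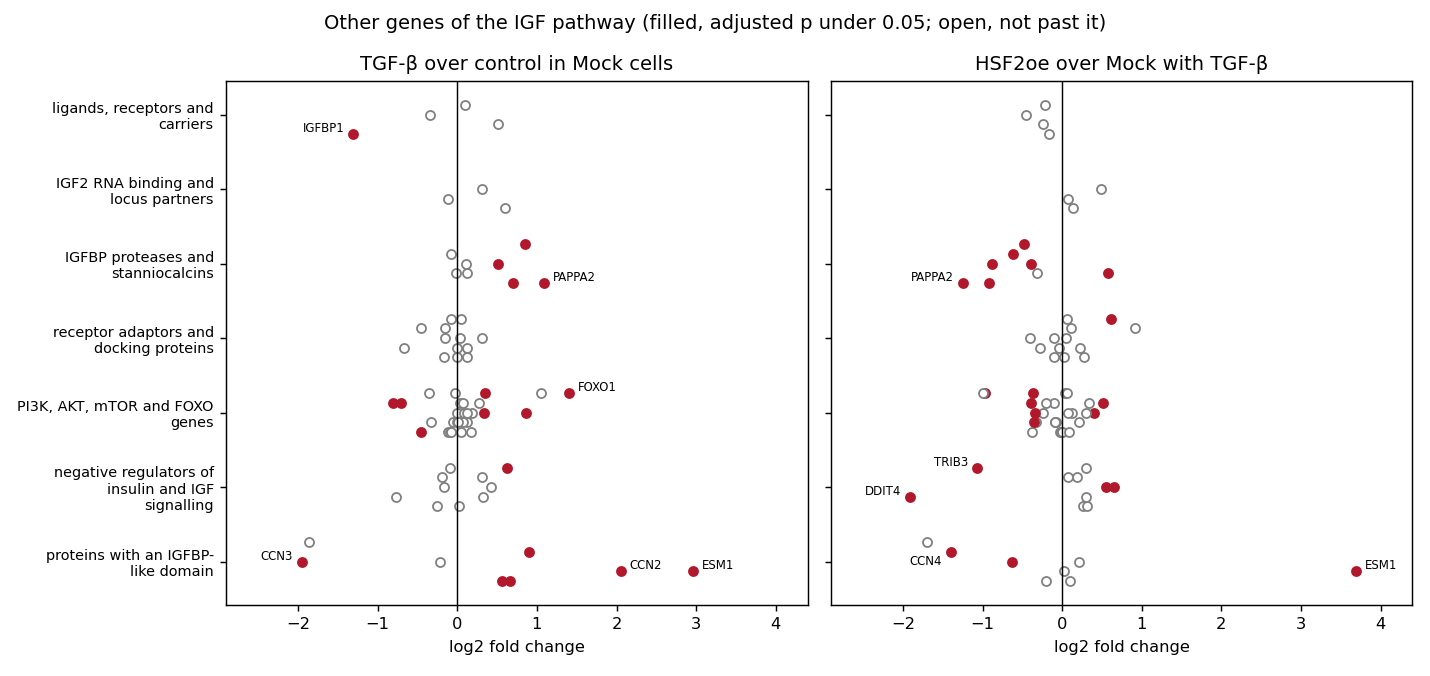
Log2 fold changes (horizontal axes) of the tested genes of 7 pathway lists (rows) for TGF-β over control in Mock cells and for HSF2oe over Mock with TGF-β, 1 point per gene, filled for an adjusted p under 0.05, with names for called genes whose change exceeds 1. In the left panel 4 of 8 proteases and stanniocalcins and 0 of 13 receptor adaptors are filled, beside 13.8% of all genes, and the lists were not tested against each other.

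Genes with a pattern like that of a member were looked for by the root mean square (RMS) difference of log2 CPM over the 8 libraries, each gene centred on its own mean, as a description with no test. Nearest to IGFBP3 were the kinase gene NUAK1, the hyaluronan-binding protein gene TNFAIP6 and LMCD1, at an RMS difference of 0.17, 0.18 and 0.22. The median over 8983 candidate genes was 0.86. Nearest to IGFBP4 were EPDR1, ASAP3 and the transcription factor gene CEBPD, at 0.10, 0.11 and 0.13, beside a median of 0.61. IGFBP2, the member with the widest range on this scale, had no near gene. KITLG, CCDC34 and INPP4B came first at 0.57, 0.60 and 0.61, beside a median of 0.91.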

How the data were processed

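RNA was sequenced from 8 libraries of HS578T cells. Per the labels' protocols, total RNA was purified and libraries were made with a stranded mRNA kit. The authors deposited raw gene counts, made per the file headers with featureCounts 2.0.1 on read pairs against GENCODE release 38, without strand and without multi-overlapping reads. Per the submitters' processing notes, STAR 2.7.9a and GRCh38 were used. The deposited log2 CPM values (13169 genes, lowest count 7) lay within 0.0226 of values recomputed here. Gene lengths from the count table gave TPM.

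The count test was the quasi-likelihood test of edgeR 4.0.16, run in R 4.3.3 (filterByExpr, 16008 genes, TMM factors, fit of group means over 8 libraries, Benjamini-Hochberg adjustment, threshold 0.05). Standard errors are the log2 fold change over the square root of F. Alternatives used DESeq2 1.42.0, limma 3.58.1 on the deposited values, other filters and scalings, a replicate block, 4 libraries, and each library left out. The fit was tested on simulated data.

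Named genes were the 10 members, 3 checks (1 is not reported here), up to 4 genes past the threshold per list and 3 neighbours in pattern of the 3 widest-ranging members. Members and lists were chosen with earlier results of these data known, and for list genes the comparisons named were chosen after their values were seen. No batch is given in the labels. Chi-square per degree of freedom between the replicates of each group was 12.5 to 26.8, so no library is a copy of its replicate. The labels do not tie equal replicate numbers across groups together, so the main fit has no block. Deviations of equally numbered libraries correlated at 0.05 to 0.163, all positive, and what the numbers share was not tested. Calls that the block adds are given with the alternatives.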

Additional observations from a re-analysis of the deposited data

How the results depend on the processing

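Of 592 log2 values of members other than IGFBP2 under the alternatives, 515 kept direction and side of the threshold, 21 lost a call, 28 gained one and 28 changed sign, none of them a called value. With the replicate block, genes past the threshold numbered 3350 for TGF-β in Mock, 2366 for TGF-β in HSF2oe, 3614 for HSF2oe over Mock in control medium and 78 for the interaction, and members 5 for TGF-β in HSF2oe and 6 for HSF2oe over Mock in control medium. Under the block IGFBP3 was called for HSF2oe over Mock in both media (-0.346 with TGF-β and -0.343 in control medium, adjusted p = 0.0085 and 0.0131, edgeR). The block also called IGFBP6 for TGF-β in both transfections, IGFBP7 for TGF-β in HSF2oe and IGF2R for TGF-β in Mock. IRS1 and IGFBP5 were called with it for HSF2oe over Mock in control medium. The replicate numbers are not shown to pair the libraries. Without the low-count filter, 2441 genes passed for HSF2oe over Mock in control medium, 6 members among them. The same setting gave 83 genes for the interaction, where DESeq2 called 23. Scaling by library totals alone gave 4493 genes (608 higher, 3885 lower) for TGF-β in Mock and 2045 (452 higher, 1593 lower) in HSF2oe, with the median of all genes at -0.27 and -0.17. It changed the sign of IGFBP5 for TGF-β in Mock (-0.176), of IGF2R (-0.118) and IRS1 (-0.148) for TGF-β in HSF2oe, of IGF1R for HSF2oe over Mock with TGF-β (0.103), and of IGFBP3 (0.068) and IGFBP4 (0.076) in the interaction. The cause was not tested.

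Leaving out each library in turn gave 1126 to 2303 genes for TGF-β in Mock, 676 to 1305 for TGF-β in HSF2oe, 353 (without HSF2oe control 1) to 2008 for HSF2oe over Mock in control medium, with 1 to 4 members, and 1483 to 3332 with TGF-β. Log2 values that crossed 0 ran, for TGF-β in Mock, from -6.203 to 0.434 for IGFBP2, -0.09 to 0.271 for IGFBP5 and -0.157 to 0.007 for IRS1. For TGF-β in HSF2oe they ran from -0.133 to 0.209 for IGF2R and -0.124 to 0.145 for IRS1. For HSF2oe over Mock in control medium they ran from -0.305 to 0.003 for IGF2R, -0.213 to 0.751 for IGFBP2 and -0.802 to 0.065 for IGFBP3, and with TGF-β from -0.81 to 5.826 for IGFBP2 and -0.219 to 0.031 for IGF1R. In the interaction they ran from -0.045 to 0.205 for IGF1R, -1.148 to 5.489 for IGFBP2, -0.398 to 0.469 for IGFBP3, -0.19 to 0.176 for IGFBP4 and -0.053 to 0.222 for IRS1. Depth limits IGF2 and IGFBP2.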

Other observations

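Replicate 2 was above replicate 1 in all 4 groups for IGFBP3, IGFBP4, IGFBP6 and IGFBP7. For IGFBP3 the pairs (replicate 2, then 1) were 1594 and 1120 CPM with HSF2oe TGF-β, 613 and 335 CPM in HSF2oe control, 2006 and 1436 CPM with Mock TGF-β, and 684 and 487 CPM in Mock control. The labels do not say what the replicate numbers share.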
